A study of Mus musculus with 24 samples.

Results

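Snx18, Clcn4 and Glo1 are 3 genes that differed between Acads-/- and Acads+/+ mice on both diets in whole brain, and they are described here in brain and in liver. They were chosen by their genotype differences on HF and LF diet in brain, and the liver values took no part in the choice. The platform annotation of the Applied Biosystems Mouse Genome Survey array gives each gene 1 probe, so the members are 3 genes of 13840 named on the array and 3 probes of 33012. Each passed the filter on mean signal that left 16506 probes tested in each tissue, although Snx18 and Clcn4 lay above it in both tissues only through the Acads-/- arrays, and Glo1 in both genotypes. The groups were BALB/cByJ mice, which are Acads-/- through a deletion in the gene for short-chain acyl-CoA dehydrogenase, on high-fat (HF) diet, BALB/cByKZ mice, which are Acads+/+, on HF diet, and the same substrains on low-fat (LF) diet. All were males, 12 weeks old, raised on chow and fed HF or LF diet for 2 days, with 3 arrays a group in each tissue and 24 in all. Genotype and substrain go together in every comparison, so the Acads deletion and any other difference between the substrains cannot be told apart. The substrains come from separate breeding colonies of common origin, and the Acads-/- and Acads+/+ mice are not described as littermates.

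SNX18 is a sorting nexin of the SNX9 family, with an SH3, a PX and a BAR domain. It binds and bends membranes at endosomes and recycling endosomes, and in cultured human cells it takes part in the formation of autophagosomes. ClC-4, the product of Clcn4, exchanges chloride for protons across the membrane of endosomes, where it pairs with ClC-3, and in humans changes in CLCN4 are linked to intellectual disability and epilepsy. GLO1, or glyoxalase 1, joins with glutathione to convert methylglyoxal, a reactive by-product of glycolysis, to S-lactoylglutathione, from which HAGH, or glyoxalase 2, releases lactate. In mouse brain Glo1 has been studied in relation to anxiety-like behavior.

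The 3 genes lie on different chromosomes, Snx18 on chromosome 13, Clcn4 on chromosome 7 and Glo1 on chromosome 17, and Acads lies on chromosome 5. Because the genes were high in the same mice, their promoters are printed, as RefSeq gives them for the build GRCm38.p6, 300 bases around the start of the gene, with each gene on the minus strand. For Clcn4 the first of 2 annotated promoters is printed. They show the C57BL/6J reference and not the sequence of either BALB/c substrain. Capitals mark matches, on either strand, to the GC box GGGCGG or to the CCAAT box CCAAT, and overlapping matches were merged. TATAAA and TGACNNNGC, the core of the antioxidant response element, were also searched.

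Snx18 promoter, chr13:113618515-113618814: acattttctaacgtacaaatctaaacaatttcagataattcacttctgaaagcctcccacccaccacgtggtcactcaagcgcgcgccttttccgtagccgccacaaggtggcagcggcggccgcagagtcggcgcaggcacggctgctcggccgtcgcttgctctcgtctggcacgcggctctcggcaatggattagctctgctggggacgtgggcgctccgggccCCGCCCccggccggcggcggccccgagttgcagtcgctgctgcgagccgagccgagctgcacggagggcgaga

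Clcn4 promoter, chr7:7299508-7299807: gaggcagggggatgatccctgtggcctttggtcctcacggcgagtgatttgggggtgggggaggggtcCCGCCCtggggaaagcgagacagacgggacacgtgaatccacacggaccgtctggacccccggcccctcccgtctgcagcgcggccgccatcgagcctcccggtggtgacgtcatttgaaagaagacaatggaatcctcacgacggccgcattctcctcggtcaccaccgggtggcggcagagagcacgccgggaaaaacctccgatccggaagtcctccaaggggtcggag

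Glo1 promoter, chr17:30612610-30612909: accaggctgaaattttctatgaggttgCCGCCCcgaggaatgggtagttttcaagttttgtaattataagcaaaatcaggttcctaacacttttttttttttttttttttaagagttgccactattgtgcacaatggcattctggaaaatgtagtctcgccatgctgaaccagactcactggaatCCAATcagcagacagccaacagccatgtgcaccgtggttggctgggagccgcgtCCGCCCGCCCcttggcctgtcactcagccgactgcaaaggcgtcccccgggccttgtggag

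The Snx18 promoter held 35 CpG dinucleotides at 65.3% GC and the Clcn4 promoter 27 at 65.7% GC, each with 1 GC box, against a median of 7 CpG and 52.7% GC over 32851 mouse promoters. The Glo1 promoter held 11 CpG at 49.7% GC, with 3 GC box matches and 1 CCAAT box. A GC box occurs in 35.7% of all promoters of this length, CCAAT in 37.4%, TATAAA in 13.6% and the antioxidant response element core in 12.4%. The last 2 had no match in these windows. The other Clcn4 promoter, chr7:7298787-7299086, held 14 CpG at 59.7% GC and 1 GC box. The GC box was the one motif of the 4 found in each of these promoters, and it is common.

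The genotype labels were checked on Acads. In brain Acads averaged 9.44 ± 0.57 in Acads-/- mice and 11.82 ± 0.09 in Acads+/+ mice on HF diet, as log2 signal, and 8.92 ± 0.88 in Acads-/- mice and 10.79 ± 0.79 in Acads+/+ mice on LF diet (SD, n = 3 each). The groups did not overlap on either diet. In liver they overlapped on both, with a log2 fold change of -1.48 averaged over diets (SE 0.55, adjusted p = 0.936 from limma), and where the Acads probe lies relative to the deletion is not known. The Acads+/+ HF brain arrays stood apart from the rest, with a median correlation with the other arrays of 0.875 to 0.940, while 34.9% of tested probes were called for genotype on HF diet, against 3 probes (0.0182%) on LF diet. Liver arrays had correlations of 0.921 to 0.948. Of the 12 numbers that name the arrays of a tissue, 11 occur in both tissues, and the labels do not say whether a number marks a mouse, so liver may come from the same animals as brain.

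In brain Snx18 was among the brighter signals of Acads-/- mice and close to the lowest measurable signals of Acads+/+ mice. On HF diet it had log2 signals of 13.83, 13.87 and 13.85 in Acads-/- mice, against 8.65, 8.30 and 8.32 in Acads+/+ mice. On LF diet it had 14.09, 13.65 and 13.79 in Acads-/- mice, against 7.87, 8.06 and 8.17 in Acads+/+ mice, where 7.87 is the floor to which low values were raised. Every Acads-/- array had Snx18 at or above the 78.9th percentile of its own signals and every Acads+/+ array at or below the 21.7th. The log2 fold change was 5.42 on HF diet, or 43.0-fold, and 5.81 on LF diet, or 56.0-fold, with 1 Acads+/+ LF value raised to the floor. These contrasts chose the gene, so no test of them is given.

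Clcn4 also stood high in the brain of Acads-/- mice, and in Acads+/+ mice it lay further above the floor than Snx18. On HF diet its log2 signals were 13.78, 13.78 and 12.48 in Acads-/- mice, against 10.70, 10.08 and 9.16 in Acads+/+ mice. On LF diet they were 13.67, 13.72 and 13.46 in Acads-/- mice, against 9.98, 9.73 and 9.84 in Acads+/+ mice. The HF groups were more spread, with SDs of 0.75 and 0.77, than the LF groups, with 0.14 and 0.12, and neither pair overlapped. The log2 fold change was 3.37 on HF diet and 3.77 on LF diet, or 10.3-fold and 13.6-fold.

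Glo1 was bright in every brain. On HF diet its log2 signals were 16.68, 16.76 and 16.38 in Acads-/- mice, against 15.10, 15.34 and 15.18 in Acads+/+ mice. On LF diet they were 16.70, 16.58 and 16.53 in Acads-/- mice, against 14.97, 14.72 and 15.03 in Acads+/+ mice. The log2 fold change was 1.40 on HF diet and 1.70 on LF diet, or 2.64-fold and 3.24-fold, the smallest of the 3 genes, and the groups did not overlap. A processed pseudogene, Glo1-ps, lies on chromosome 2, and whether the probe also reads it was not tested.

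**Figure D1:**
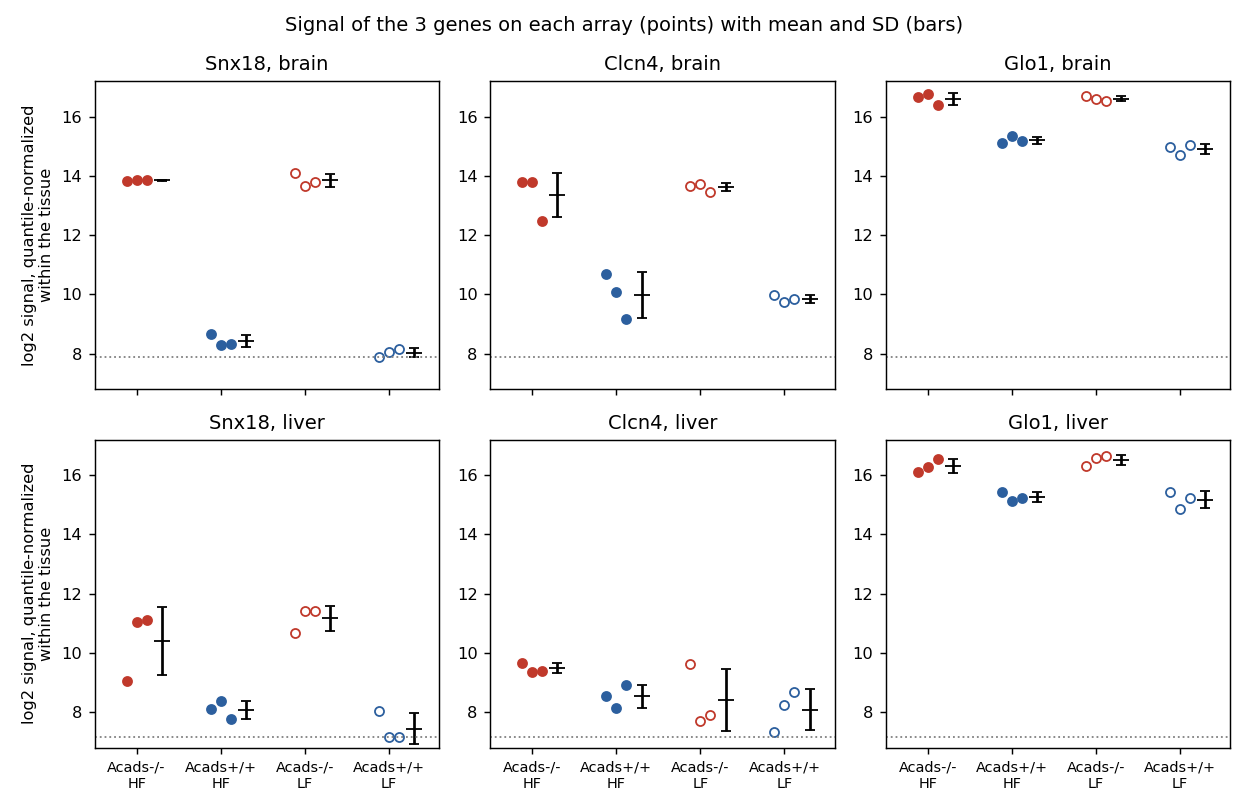
Log2 signal of Snx18, Clcn4 and Glo1 (vertical axis, quantile-normalized within each tissue) on each of 3 arrays a group (points), for Acads-/- mice (red) left of Acads+/+ mice (blue) on HF diet (filled) and LF diet (open), with the mean and SD beside them. The dotted line is the floor; in liver Snx18 and Glo1 keep the genotypes apart on both diets, while Clcn4 overlaps on LF diet.

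The members were the 3 probes called on both diets in brain in the same direction. Just inside the rule, Clcn4 had an adjusted p of 0.00644 on LF diet from limma. Just outside it was a probe with no gene name (331509), lower in Acads-/- mice by log2 fold changes of -3.36 and -2.25 on HF and LF diet, at an LF adjusted p of 0.0592. Next were another unnamed probe (465223), with -0.92 and -0.90 and an LF adjusted p of 0.632, and Prlhr, the receptor of prolactin-releasing peptide, with 1.34 and 1.08 and an LF adjusted p of 0.744. On LF diet 3 probes were called in all, and they are the members.

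Whether the livers of the same substrains differ in these genes was the question that the choice in brain left to be tested. Averaged over diets, Snx18 was higher in Acads-/- livers by a log2 fold change of 3.02, or 8.12-fold (SE 0.37, 95% interval 2.21 to 3.84 with 2 Acads+/+ values raised to the floor), and Glo1 by 1.19, or 2.28-fold (SE 0.15, 95% interval 0.85 to 1.53). Over the 16506 tested probes their adjusted p was 0.0652 for Snx18 and 0.0718 for Glo1 from limma, so neither passed the threshold of 0.05. They ranked 2 and 3 by p among these 16506 probes. Without the filter, which Snx18 passed only through the group where it is high, the adjusted p over all 33012 probes was 0.0628 for Snx18 and 0.247 for Glo1. Clcn4, which also passed the filter only through its Acads-/- arrays, had 0.64 (SE 0.35, 95% interval -0.15 to 1.42, adjusted p = 0.998, rank 1545 of 16506). An exact two-sided permutation test, which does not use the filter, of the genotype labels within each diet gave p = 0.005 for Snx18 and for Glo1, the smallest that its 400 regroupings allow, and p = 0.125 for Clcn4. The tested probe set had 1 call for this contrast (0.00606%), the unnamed probe 331509, with -2.69, and 464 probes (2.81%) at an unadjusted p under 0.05 and 1.6-fold.

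The Snx18 signal in liver was clear on 5 of 6 Acads-/- arrays. On HF diet the log2 signals were 9.07, 11.05 and 11.10 in Acads-/- livers, against 8.10, 8.37 and 7.76 in Acads+/+ livers. On LF diet they were 10.67, 11.41 and 11.41 in Acads-/- livers, against 8.05, 7.15 and 7.15 in Acads+/+ livers, where 7.15 is the floor. No Acads-/- array overlapped an Acads+/+ array on either diet or over both diets together, and 1 Acads-/- HF array (17873) lay well below the other 5. That array had the lowest median correlation with the others in liver, 0.921. Without it the averaged difference was 3.38 (adjusted p = 0.00252 from limma, and 0.00277 over all 33012 probes), past the threshold. The log2 fold change was 2.33 on HF diet (SE 0.52, adjusted p = 0.421) and 3.72 on LF diet (SE 0.52, adjusted p = 0.224, with 2 Acads+/+ values raised to the floor). Without array 17873 the LF value was 3.74 (adjusted p = 0.0129, and 0.0166 over all 33012 probes). That array is on HF diet, so leaving it out reaches the LF test only through the normalization and the shared fit. It held the lowest Snx18 signal of the Acads-/- livers, so leaving it out raises the averaged difference. With each liver array left out in turn, the adjusted p from limma was 0.00252 to 0.262 averaged over diets and 0.0129 to 0.839 on LF diet. On HF and on LF diet limma made 0 calls (0.00%) in liver, with 936 probes (5.67%) and 543 probes (3.29%) at an unadjusted p under 0.05 and 1.6-fold. Since the Acads+/+ signals were near the floor, an offset of 500 added before the log2 lowered the averaged value to 1.70.

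In liver Glo1 differed in the same direction as in brain, with smaller log2 fold changes. The brain values chose the gene, the tissues were normalized separately, and the difference between the tissues was not tested. On HF diet the log2 signals were 16.11, 16.27 and 16.54 in Acads-/- livers, against 15.43, 15.12 and 15.23 in Acads+/+ livers. On LF diet they were 16.32, 16.57 and 16.64 in Acads-/- livers, against 15.44, 14.85 and 15.24 in Acads+/+ livers. Every Acads-/- array lay above every Acads+/+ array. The log2 fold change was 1.05 on HF diet (SE 0.22, adjusted p = 0.421 from limma) and 1.34 on LF diet (SE 0.22, adjusted p = 0.441). The averaged call depended on the processing, since it passed with array weights (1.26, adjusted p = 0.0290) and when only the brightest 25% of probes were tested (adjusted p = 0.0149).

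Clcn4 was dim in liver and its groups overlapped on LF diet. On HF diet the log2 signals were 9.67, 9.36 and 9.40 in Acads-/- livers, against 8.54, 8.14 and 8.92 in Acads+/+ livers. On LF diet they were 9.62, 7.71 and 7.92 in Acads-/- livers, against 7.34, 8.23 and 8.69 in Acads+/+ livers. On HF diet all Acads-/- arrays lay above the Acads+/+ arrays, with a log2 fold change of 0.95 (SE 0.50, 95% interval -0.16 to 2.05, adjusted p = 0.795 from limma). On LF diet 1 Acads-/- array was the highest and the other 2 lay within the Acads+/+ range, with 0.33 (SE 0.50, 95% interval -0.78 to 1.44, adjusted p = 1.00), and the value was -0.27 without that Acads-/- array (17866) and -0.05 without the lowest Acads+/+ array (17962). The upper bounds of these intervals lie below the brain values of 3.37 and 3.77. Those brain values chose the gene and may be too high for that reason, and they have intervals of their own (2.50 to 4.24 and 2.90 to 4.64). The tissues were also normalized separately, and the difference between brain and liver was not tested.

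**Figure D2:**
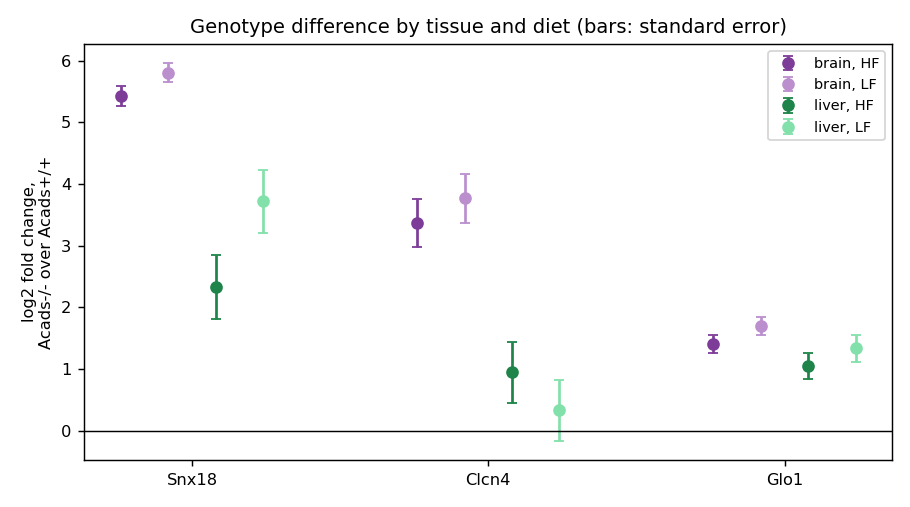
Log2 fold change of Acads-/- over Acads+/+ mice (vertical axis) for the 3 genes in brain (purple) and liver (green) on HF (dark) and LF diet (light), with the standard error from limma as bars and n = 3 arrays a group. Snx18 runs from 5.81 in brain on LF diet to 2.33 in liver on HF diet, Glo1 stays between 1.05 and 1.70, and the liver values of Clcn4 are 0.95 and 0.33.

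Read against all tested probes, groups that do not overlap with Acads-/- livers higher were seen on both diets for 55 of 16506 probes (0.333%), and Snx18 and Glo1 were among them. Over both diets together, with all 6 Acads-/- livers above all 6 Acads+/+ livers, there were 23 probes (0.139%), again with both genes. On HF diet alone, where Clcn4 also kept its groups apart, 6.04% of probes did so in that direction, and on LF diet 5.10%. Snx18 and Clcn4 are in the tested set of liver only through their Acads-/- arrays, so for them these liver counts are a description. Of the 11963 probes tested in both tissues, 5 (0.0418%) had groups apart in the same direction in all 4 comparisons of genotype, 4 higher and 1 lower in Acads-/- mice. The brain comparisons among these 4 chose the members, and Snx18 is in the tested set only through its Acads-/- arrays, so this count is a description. Those with a gene name were Snx18 and Glo1. The other 3 have no gene name in the annotation used here.

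**Figure D3:**
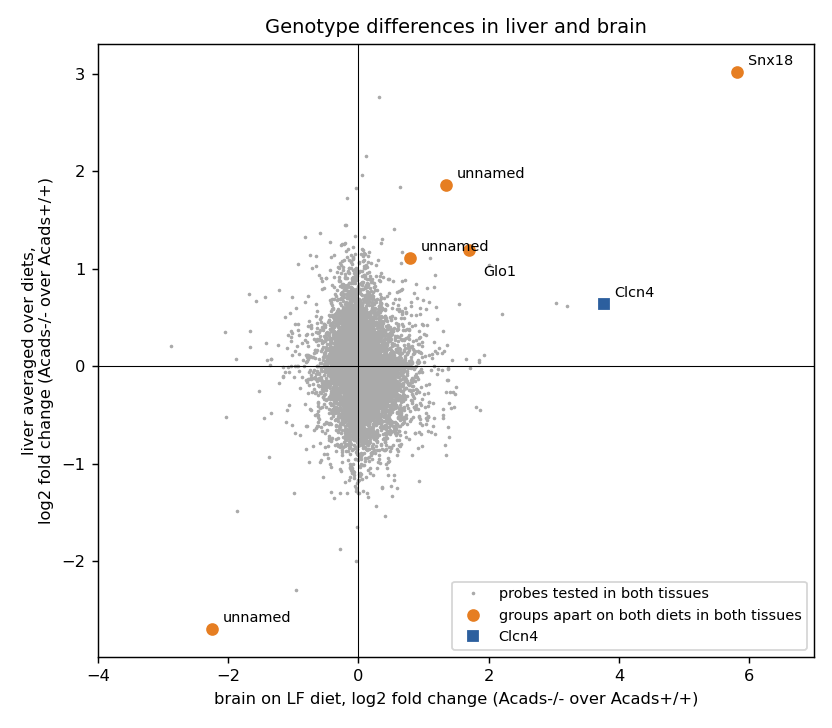
Log2 fold change of Acads-/- over Acads+/+ mice in brain on LF diet (horizontal axis) and in liver averaged over diets (vertical axis) for the probes tested in both tissues (grey), with those whose groups were apart in all 4 comparisons in orange and Clcn4 in blue. Snx18 lies at 5.81 and 3.02, Glo1 at 1.70 and 1.19, and Clcn4, far out in brain at 3.77, lies at 0.64 in liver.

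Diet moved none of the 3 genes past the threshold in either tissue. In brain the effect of HF over LF diet, averaged over genotypes, was a log2 fold change of 0.20 for Snx18 (SE 0.11, adjusted p = 0.198 from limma), -0.07 for Clcn4 (SE 0.28, adjusted p = 0.870) and 0.15 for Glo1 (SE 0.11, adjusted p = 0.295), while 1542 probes (9.34%) were called. Those calls include the effect of the Acads+/+ HF arrays. In Acads-/- brains alone, where those arrays take no part, the diet difference was 0.01 for Snx18, -0.27 for Clcn4 and 0.00 for Glo1. In Acads+/+ brains it was 0.39 for Snx18 (adjusted p = 0.0659 from limma), 0.13 for Clcn4 (adjusted p = 0.799) and 0.30 for Glo1 (adjusted p = 0.125). In that comparison 32.9% of all probes were called. In liver the averaged diet effect was -0.06 for Snx18 (adjusted p = 0.962), 0.75 for Clcn4 (SE 0.35, adjusted p = 0.393) and -0.06 for Glo1 (adjusted p = 0.912), where 78 probes (0.473%) were called. By genotype, the diet value in liver was -0.76 in Acads-/- mice and 0.63 in Acads+/+ mice for Snx18, and 1.06 in Acads-/- mice and 0.44 in Acads+/+ mice for Clcn4, none past the threshold. The change of the genotype difference with diet in liver did not pass the threshold, with an interaction of -1.39 for Snx18 (adjusted p = 0.891), 0.62 for Clcn4 (adjusted p = 0.923) and -0.29 for Glo1 (adjusted p = 0.920). limma made 0 calls for the interaction in liver (0.00%), and 848 probes (5.14%) had an unadjusted p under 0.05 and 1.6-fold.

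Relatives and partners of the 3 genes were called only in brain contrasts that include the Acads+/+ HF arrays. Besides genotype on HF diet, these included genotype averaged over diets, with 2 of 44 called (Dnm2 and Pnkd) against 9.91% of all probes. They also included diet in Acads+/+ mice, where 32.9% of all probes were called. There 6 of 19 tested sorting nexins were higher on HF diet and 3 lower, and 7 of 10 SNX18 partners were higher. Of 6 CLC genes 1 was higher, and of 13 genes of methylglyoxal handling 3 were higher and 1 lower. These list totals include the members, and Snx9 is in 2 lists. Of 57 genes with a probe, taken from lists of sorting nexins, SNX18 partners, CLC channels and transporters, and enzymes that handle methylglyoxal and glutathione, 38 were tested in liver and 44 in brain, and 0 were called for genotype averaged over diets in liver or on LF diet in brain, or for diet averaged over genotypes in either tissue. The shares over all probes were 0.00606% and 0.0182% for these genotype contrasts, and 9.34% in brain and 0.473% in liver for diet. On HF diet in brain, where the Acads+/+ arrays stood apart, 18 of 44 were called, 5 higher and 13 lower in Acads-/- mice, against 34.9% of all probes. Their median log2 fold change in liver was 0.05, against 0.00 for all probes tested. The values farthest from 0 among those tested in liver were -1.33 for Wasl (adjusted p = 0.534 from limma), the N-WASP actin regulator, 0.78 for Snx8, -0.58 for Rb1cc1, which encodes the autophagy scaffold FIP200, and 0.49 for Snx12. Snx9, the closest well-measured relative of Snx18, had 0.08 in liver and 0.25 in brain on LF diet, and the dynamins Dnm1, Dnm2 and Dnm3, which cut membrane necks in endocytosis, had -0.01, -0.26 and 0.19 in brain on LF diet.

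Of the exchangers closest to ClC-4, Clcn3, its partner in endosomes, had a log2 fold change of -0.05 in liver, -0.06 in brain on LF diet and -0.95 in brain on HF diet (called by limma). Clcn5, a close relative best known from kidney, had -0.19 in liver and, below the filter, -1.05 in brain on LF diet. Beside Glo1, the second enzyme of the pathway, Hagh, had -0.06 in liver and 0.01 in brain on LF diet. The enzymes that make glutathione, which GLO1 needs, had 0.12 for Gclc, -0.16 for Gclm and 0.17 for Gss in liver. In brain Gss was the single gene of these lists, the members aside, whose groups were apart on both diets in the same direction. It was lower in Acads-/- mice by log2 fold changes of -0.33 on HF and -0.15 on LF diet. That is 1 of 44, where 1.51% of all probes were apart in the higher and 1.76% in the lower direction. Snx20, Gabarapl1 and Ostm1 were also apart on both diets in brain, but in opposite directions. Snx20 was higher in Acads-/- mice on HF diet (1.64) and lower on LF diet (-0.92). Gabarapl1 and Ostm1 were lower on HF diet (-1.34 and -0.41) and higher on LF diet (0.18 and 0.19).

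The genes beside the members were examined too, since close neighbours on a chromosome are usually inherited together. Within 1 Mb of Snx18 lie 41 annotated genes with 12 probes, within 1 Mb of Clcn4 67 genes with 17 probes and within 1 Mb of Glo1 37 genes with 15 probes. In liver 0 of the 22 tested probes of neighbours had groups apart on both diets, and 0 were called by limma for genotype averaged over diets, against 0.333% of all probes apart in the higher and 0.182% in the lower direction and 0.00606% called. In brain 2 of the 23 tested probes of neighbours had groups apart on both diets, against the same 1.51% and 1.76%. They were Gpx8, a peroxidase of the endoplasmic reticulum near Snx18, higher in Acads-/- mice by 1.01 on HF and 0.30 on LF diet, and a probe of Usp29, an imprinted gene near Clcn4, lower by log2 fold changes of -0.83 and -0.44. In liver Gpx8 had 0.54 averaged over diets (adjusted p = 0.998 from limma) with overlapping groups.

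The nearest neighbours with a probe had values nearer to 0 than the members, except beside Clcn4 in liver. In brain the members were chosen by these differences, so there the comparison with neighbours is a description. Around Snx18, in brain on LF diet and in liver averaged over diets, Esm1 had -0.65 and -0.06, Gzmk 0.07 and 0.36, Gzma -0.25 and -0.15, Hspb3 -0.36 and -0.01, Arl15 -0.12 and -0.46 and Ndufs4 -0.07 and 0.10. Around Clcn4 the farthest from 0 of these nearest genes was Zfp772, a zinc finger gene, with 1.51 in brain and -0.82 in liver. These values had opposite directions, and in liver, where it was below the filter, Zfp772 lay farther from 0 than Clcn4. Zfp418 had -0.14 and 0.46, Vmn2r29 0.28 and -0.37, Vmn2r30 0.20 and -0.38 and Vmn2r42 0.31 and 0.02. Farther from Clcn4 but within 1 Mb, Olfr1349 had 1.21 in brain, below the filter, and -1.05 in liver (adjusted p = 0.971 from limma). That liver value was also farther from 0 than Clcn4. The Zfp772 groups overlapped in brain on both diets. Around Glo1, Zfand3 had 0.05 in brain and 0.16 in liver, Cmtr1 -0.13 and 0.17, Rnf8 0.13 and -0.05, Dnah8 0.48 and 0.06, Glp1r -0.27 and 0.70 and Umodl1 0.42 and 0.18. Of these neighbours Esm1, Gzma, Zfp418, Vmn2r30, Dnah8, Glp1r and Umodl1 were also below the filter on mean signal in brain. In liver Esm1, Gzma, Gzmk, Hspb3, Zfp418, Vmn2r42 and Glp1r were below it as well. Whether values below the filter reflect a measured signal is not known.

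**Figure D4:**
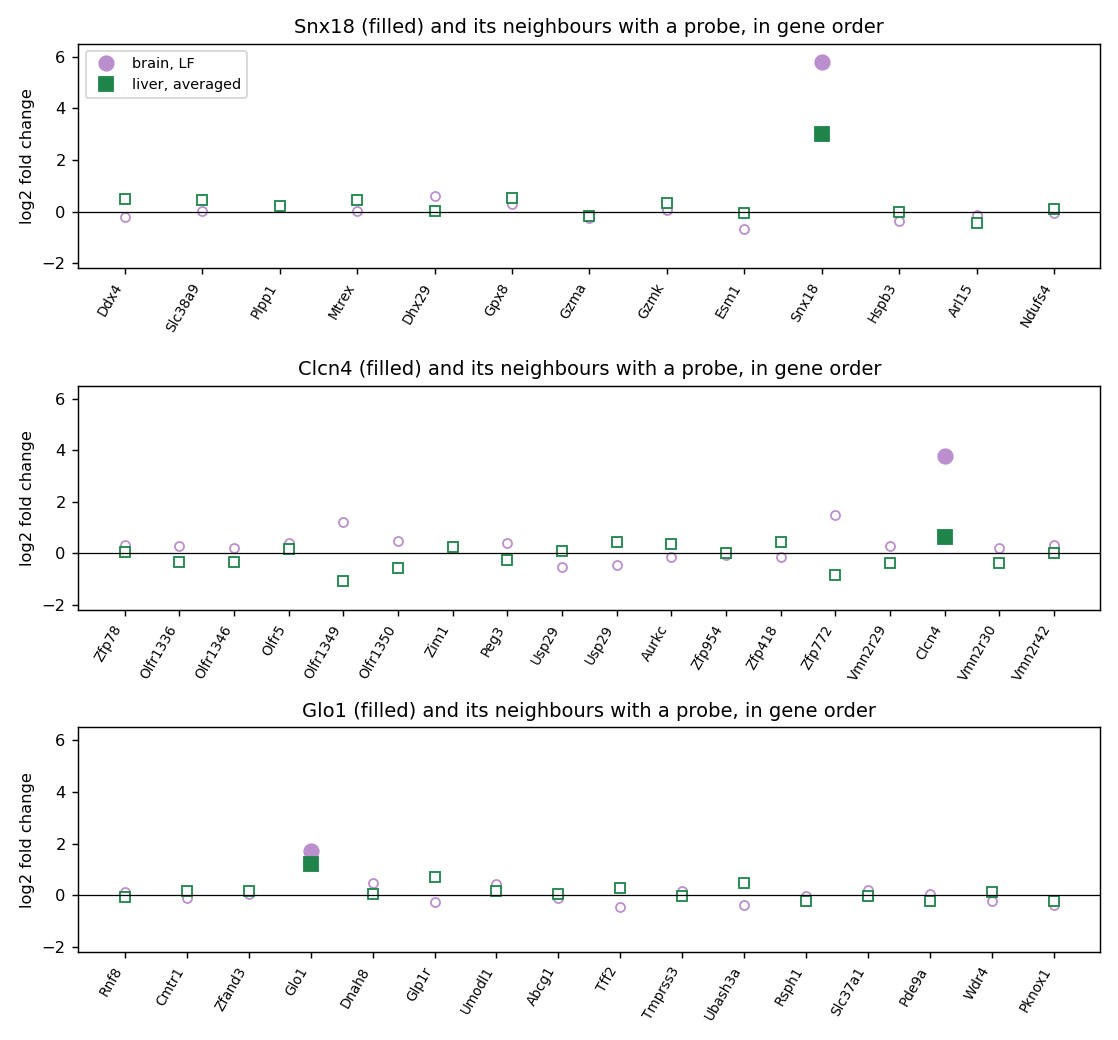
Log2 fold change of Acads-/- over Acads+/+ mice (vertical axis) for each member (filled) and the genes within 1 Mb that have a probe (open), in gene order along the chromosome, in brain on LF diet (circles) and in liver averaged over diets (squares), including probes below the filter on mean signal. Each member stands above its neighbours, in brain at 5.81, 3.77 and 1.70 for Snx18, Clcn4 and Glo1, and in liver at 3.02, 0.64 and 1.19 against at most 0.54, 0.46 and 0.70 for a neighbour. The brain values chose the members, so their height above the neighbours in brain follows from the choice. Near Clcn4, Olfr1349 at -1.05 and Zfp772 at -0.82 lie farther from 0 in liver than Clcn4, in the other direction.

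Over all 24 arrays, with each probe centred on its mean in each tissue, the profile most like that of Snx18 among 6736 named probes was Glo1, with a Pearson correlation of 0.97, and Clcn4 followed at 0.81. For Clcn4 and Glo1 it was 0.76. The next most alike were Tnnc1, which encodes a troponin of slow muscle and heart, at 0.68, Lamtor3, a scaffold at the lysosome, at 0.66 and Rdh16, a retinol dehydrogenase, at 0.65 for Snx18, and Osgep at 0.72 for Clcn4. These are descriptions, since the arrays of a group share a genotype and the brain values chose the members. Tnnc1 had a log2 fold change of 1.90 in brain on HF diet but 0.14 on LF diet, and in liver 0.77 averaged over diets (adjusted p = 0.584 from limma).

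Markers of cell types were read beside these values. In liver 4 of 4 hepatocyte markers with a probe and 28 of 49 markers of other cell types were tested, 0 were called for genotype averaged over diets and 0 had groups apart on both diets, with log2 fold changes of -0.52 to 0.59 for the other cell types. In brain 9 of 9 markers of neurons, astrocytes and oligodendrocytes and 23 of 44 of other cell types were tested. On LF diet 0 were called, against 0.0182% of all probes. Log2 fold changes on LF diet were -0.07 to 1.13 for the first 9 and -0.57 to 1.42 for the other cell types. Groups apart on both diets in the same direction were seen for 0, against 1.51% of all probes higher and 1.76% lower. Slc1a2 and Kl had groups apart on both diets in opposite directions, lower in Acads-/- mice on HF and higher on LF diet. On HF diet in brain 12 of these 32 markers were called, 6 higher, such as Aif1 at 1.57 and Hba-a1 at 1.91, and 6 lower, such as Mbp at -1.48 and Pecam1 at -1.36, against 34.9% of all probes. Their part in the HF differences of the members was not tested. In such bulk tissue, fewer cells of a type and less RNA per cell cannot be told apart.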

How the data were processed

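Total RNA of whole brain and of liver was hybridised to Mouse Genome Survey arrays of Applied Biosystems (1 colour), 12 for each tissue, from 3 mice a group. The groups follow the genotype, tissue and diet of the labels. For LF liver 1 label field reads high-fat, while title and treatment read low-fat, which was used. The intensities, as deposited, are signals the authors extracted with the analyzer software, not normalized between arrays (medians of 976 to 2088 in brain and 340 to 460 in liver). The authors also deposited log2 values, quantile-normalized within each tissue, whose columns matched the intensities of their own group. Signal/noise ratios and flags were not used here, and a filter on mean signal took their place, so whether a dim signal exceeded background is not known.

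Intensities of each tissue were quantile-normalized, raised to the 5th percentile (log2 7.87 in brain and 7.15 in liver) and log2 transformed, and the brighter 16506 of 33012 probes by mean signal were fitted with limma 3.58.1 in R 4.3.3, with a mean for each of the 4 groups. Calls required 1.6-fold and p under 0.05 after Benjamini-Hochberg adjustment. The number of arrays limits the precision, and the median residual SD of tested probes was 0.271 in brain and 0.524 in liver. The script was tested on simulated data. Probes were named by the platform annotation (14411 with 1 symbol, 247 with several) and gene positions came from RefSeq.

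The members and lists were chosen with earlier results of these data known. Named are the members, Acads, the 4 relatives with the largest tested genotype effect in liver, family members with a known role, neighbours nearest to a member or with groups apart on both diets (those apart in brain alone were added after their values were seen), the named probes most alike, those apart in all 4 comparisons and the 3 just outside the rule. Relatives beyond the first 4, Gss and the neighbour Olfr1349 were chosen after their values were seen. Alternatives were median scaling, an offset of 500, no filter, the brightest 25% of probes, array weights, the authors' log2 values, the compared groups alone, the methods' t-test, a replicate block and leaving out each array. The fit without the Acads+/+ HF brain arrays, and the fits of liver with no filter and each array left out, were added after the data were examined.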

Additional observations from a re-analysis of the deposited data

How the results depend on the processing

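For genotype in liver averaged over diets, Glo1 passed with an offset of 500 (1.18, adjusted p = 0.0267), with the brightest 25% of probes (1.19, adjusted p = 0.0149), with array weights (1.26, adjusted p = 0.0290) and by the methods' t-test before and after adjustment (1.19), and Snx18 passed with array weights (3.24, adjusted p = 0.0137) and by that test unadjusted (3.02). Without adjustment it also passed Snx18 (2.33), Clcn4 (0.95) and Glo1 (1.05) on HF diet and Snx18 (3.72) and Glo1 (1.34) on LF diet, where 496 and 347 probes passed it and 0 after adjustment. Leaving out each array gave 2.84 to 3.38 for Snx18 and 1.11 to 1.26 for Glo1 averaged over diets (adjusted p of 0.00252 to 0.262 and of 0.0756 to 0.312 from limma), 3.54 to 3.97 for Snx18 on LF diet and -0.27 to 0.68 for Clcn4 on LF diet, where the sign turned without array 17962 (-0.05) or 17866 (-0.27). Diet effects, none past the threshold, changed sign for Snx18 in brain with median scaling (-0.024), for Snx18 in liver with array weights (0.15) and without array 17873 (0.27), 17962 (0.09) or 18022 (0.01), within a range of -0.23 to 0.27, for Glo1 in liver without 17962 (0.0053, range -0.14 to 0.01) and for Clcn4 in brain without 18018 (0.14) or 17973 (0.15), within -0.24 to 0.15. The cause was not tested. With no filter, leaving out each liver array, a combination added after seeing the data, gave Snx18 adjusted p-values of 0.00277 to 0.340 averaged over diets. It passed only without array 17873, on LF diet as well (3.74, adjusted p = 0.0166). For Snx18 averaged over diets the authors' log2 values, with no floor, gave 3.08. An offset of 500 lowered Snx18 in liver to 1.33 on HF and 2.07 on LF diet, since its Acads+/+ signals are near the floor. Snx18 and Clcn4 were not among the brightest 25% of probes in either tissue and were not run there.

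The replicate numbers in the labels did not pair the samples, with correlations of same-numbered arrays of -0.178 to 0.216 in brain and -0.298 to 0.286 in liver. With these numbers as a replicate block, for which the authors' log2 values were used, genotype averaged over diets in liver was 3.08 for Snx18 (adjusted p = 0.198), 0.64 for Clcn4 and 1.19 for Glo1 (adjusted p = 0.239 from limma), and the block changed no call.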

Other observations

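The 3 probes without a gene name that kept the genotypes apart in all 4 comparisons had values of their own. Probe 331509 was lower in Acads-/- mice, with log2 fold changes of -3.36 on HF and -2.25 on LF diet in brain and of -2.29 on HF and -3.10 on LF diet in liver, and averaged over diets in liver it was the one probe called by limma (-2.69, adjusted p = 0.0301). Probe 786479 was higher in Acads-/- mice, with 1.67 and 1.34 in brain and 1.94 and 1.77 in liver (averaged in liver 1.86, adjusted p = 0.122). Probe 574231 was higher by 0.52 and 0.79 in brain and by 0.98 and 1.24 in liver (averaged in liver 1.11, adjusted p = 0.122). Over all 33012 probes, without the filter on mean signal, 6 probes kept the groups apart in this way. The added one was Ccdc85a, which encodes a coiled-coil protein, lower in Acads-/- mice by log2 fold changes of -1.22 on HF and -0.72 on LF diet in brain and of -0.61 and -1.10 in liver.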
